A study of Equus caballus with 6 samples.

Results

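Splicing factor genes were followed across small regions of developing and adult horse joint. The group took in every gene on the array whose symbol begins with SF3A, SF3B, SNRP, SRSF, SFRS, HNRNP, PRPF, U2AF or LSM, as named by symbol, gene number or full name in the probe descriptions. It held 63 of the 13586 named genes, with 121 of the 43603 probes. By prefix they were 37 genes grouped as the small nuclear ribonucleoprotein (snRNP) core, 9 SR protein genes and 17 hnRNP genes. The snRNP core was made of 12 PRPF, 10 LSM, 6 SNRP, 5 SF3B, 2 SF3A and 2 U2AF genes. The prefixes also admit LSMEM2, a membrane protein gene unrelated to splicing, and LSM14A and LSM14B, whose products act on stored cytoplasmic mRNA. They were kept, and counted with the snRNP core, so that the members follow the rule.

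Each of 6 groups had 1 single-colour Agilent array of RNA from cells cut out of cryosections by laser capture microdissection and amplified by PCR. Fetal hindlimbs at gestational day 40 gave 3 groups. The intermediate interzone and outer interzone are layers of the tissue that marks the future joint, and transient embryonic cartilage is the model that bone later replaces. The adult groups came from articular cartilage of the stifle at an age of 15 years: the superficial zone (down to 10% of the depth), the middle zone (20% to 30%) and the deep zone (50% to 90%). How many animals a group held is not given in the sources used here. Slides went with stage, as the 3 fetal arrays shared 1 slide and the 3 adult arrays another. With 1 array per group no difference has a replicate check, and values describe these arrays.

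Splicing removes introns from pre-mRNA. The work is done by the spliceosome, which is assembled from U-rich snRNPs: the SNRP genes encode Sm ring and U1 or U2 proteins, the SF3A, SF3B and U2AF genes encode proteins that recognise the branch point and the end of the intron, most PRPF genes encode parts of the U4/U6.U5 particle or its partners, and several LSM genes encode the ring on U6. SR proteins bind exons and as a rule promote their inclusion, while hnRNPs coat nascent transcripts and often repress splice sites. Levels of these factors differ between tissues and help to set which isoforms a cell makes, including isoforms of cartilage collagens.

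The probes on which the results turn are 60 bases long and are given here as the array design lists them, 5′ to 3′. Capitals mark the stretch that a probe shares with the next probe of its gene or, for HNRNPUL1 probe b, with all of the other 4 probes of its tile; probes in lower case alone share no run of 20 bases with the others shown. SF3B6 is shown because its probes moved together, HNRNPC because it had the largest stage difference among the members measured on all 6 arrays, and the other genes because their probes disagreed.
SF3B6 probe a: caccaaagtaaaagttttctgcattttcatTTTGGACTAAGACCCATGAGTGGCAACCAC
SF3B6 probe b: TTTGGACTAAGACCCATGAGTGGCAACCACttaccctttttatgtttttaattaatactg
SF3B6 probe c: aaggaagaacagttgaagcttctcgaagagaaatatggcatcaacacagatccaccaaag
HNRNPC probe a: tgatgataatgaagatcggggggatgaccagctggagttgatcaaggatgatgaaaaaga
HNRNPC probe b: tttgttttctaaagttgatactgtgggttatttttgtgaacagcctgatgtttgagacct
HNRNPA1 probe a: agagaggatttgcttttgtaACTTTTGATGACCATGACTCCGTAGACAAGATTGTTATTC
HNRNPA1 probe b: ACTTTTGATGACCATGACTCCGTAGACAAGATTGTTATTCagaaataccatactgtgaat
HNRNPA1 probe c: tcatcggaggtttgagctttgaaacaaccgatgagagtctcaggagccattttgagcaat
HNRNPA1 probe d: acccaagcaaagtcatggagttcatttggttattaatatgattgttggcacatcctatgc
HNRNPUL1 probe a: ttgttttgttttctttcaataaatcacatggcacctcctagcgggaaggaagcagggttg
HNRNPUL1 probe b: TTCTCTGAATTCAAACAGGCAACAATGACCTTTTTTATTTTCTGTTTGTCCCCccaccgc
SRSF6 probe a: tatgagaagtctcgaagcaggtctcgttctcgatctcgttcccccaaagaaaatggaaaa
SRSF6 probe b: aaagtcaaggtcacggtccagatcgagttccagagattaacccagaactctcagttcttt
SRSF6 probe c: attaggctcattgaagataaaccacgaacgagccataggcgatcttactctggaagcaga
U2AF1 probe a: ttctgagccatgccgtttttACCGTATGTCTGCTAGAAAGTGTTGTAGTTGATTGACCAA
U2AF1 probe b: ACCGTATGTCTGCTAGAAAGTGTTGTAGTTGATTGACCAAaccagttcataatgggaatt

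Of the members, 34 had 1 probe and 29 had several, up to 10 for HNRNPA1. For a gene with several probes, the values below are those of the probe with the highest mean level over the 6 arrays, which is probe a of each gene printed above. Where probes of a gene overlap in sequence, as in 13 members, they are not separate measurements of it. Over the reported probes of the members the median GC content was 41.7%, and over those of all genes 45%. Where the probes lie in the horse genome is not given, because no genome of the array's build was used here.

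A level is log2 of the processed spot signal minus the 75th percentile of 1765 probes that lay well above background on all 6 arrays, so 0 stands for a bright probe on any array. Levels of different probes are not compared. The arrays differed in sensitivity: 36.9% to 44.6% of probes lay well above background on the fetal arrays, 26.4% in the superficial zone, 8.40% in the middle zone and 10.8% in the deep zone. Of 5 ubiquitous genes on the array, all 5 were measured on the fetal and superficial arrays, 3 in the middle zone, where GAPDH and B2M were missing, and 4 in the deep zone, where B2M was missing. The cartilage genes COL2A1 and MATN1 were not well above background on any adult array, whereas COMP and SOX9 were on all 6, and the interzone gene GDF5 was measured in the 2 interzone layers alone. The blood gene HBB was measured on the fetal arrays and in the deep zone. Endothelial PECAM1 and CDH5 were measured on no array, skeletal muscle genes on 1 to 2 of 4 in the fetus and 0 in the adult, and the 3 macrophage genes CSF1R, CD68 and LAPTM5 on all arrays but for CD68 in the deep zone and LAPTM5 in the middle zone. The part that these markers or the lower sensitivity play in the values below was not tested. In captured tissue, fewer cells of a type and less RNA per cell cannot be told apart.

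Most splicing factor genes were detected in fetal tissue, and few in the middle and deep adult zones. Counting a gene where any of its probes lay well above background, 57 of 63 members (90.5%) were measured in each interzone layer and 58 (92.1%) in transient cartilage. Adult arrays had fewer. They numbered 47 (74.6%) in the superficial zone, 16 (25.4%) in the middle zone and 20 (31.7%) in the deep zone. Over all named genes the shares on the same arrays were 38.0%, 43.8%, 45.9%, 29.0%, 9.80% and 12.5%. The members lay above that background on every array, and their share dropped where that of all genes dropped.

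The classes differed in where they were lost. All 17 hnRNP genes were measured on each fetal array, 16 in the superficial zone, 9 in the middle zone and 12 in the deep zone. The SR protein genes numbered 8, 9 and 9 of 9 on the fetal arrays and 9 in the superficial zone, then 3 in the middle zone and 2 in the deep zone. Of the 37 genes of the snRNP core, 32, 31 and 32 were measured on the fetal arrays, 22 in the superficial zone, 4 in the middle zone and 6 in the deep zone.

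**Figure D1:**
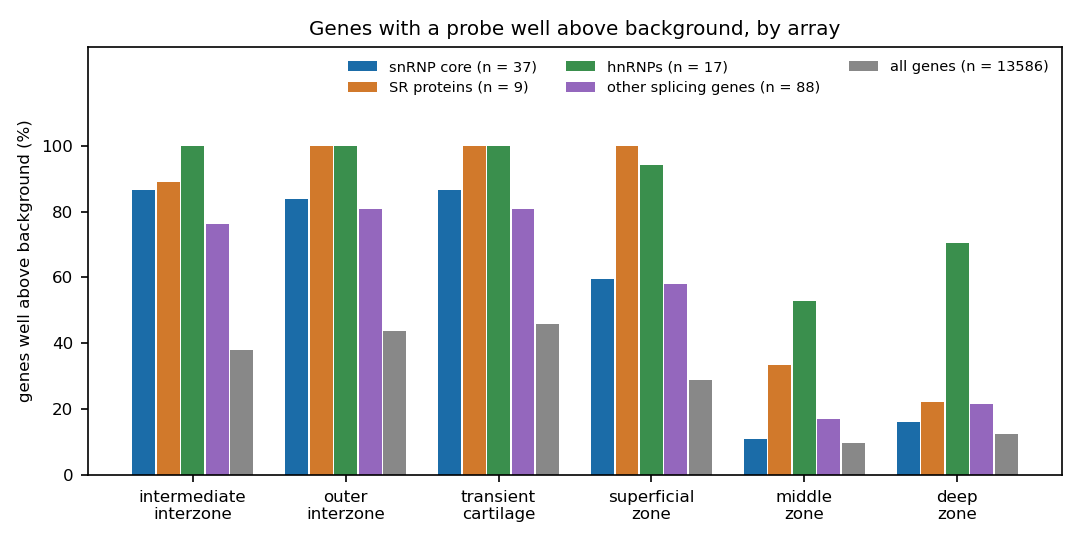
The share of genes with at least 1 probe well above background (vertical axis, percent, from 0) on each of the 6 arrays, for the 3 classes of members, the 88 other splicing genes and all 13586 named genes. The hnRNP bars stay highest in the middle and deep zones, at 52.9% and 70.6%, where the snRNP core bars are at 10.8% and 16.2%.

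The same counts were read within bands of signal strength. Among genes measured on all 3 fetal arrays with a mean fetal level above 0, 6 of 8 hnRNPs were measured in the middle zone and 7 in the deep zone, against 54.9% and 64.6% of the 164 such genes. Between -4 and 0, 3 of 8 hnRNPs were measured in the middle zone and 5 in the deep zone, against 18.5% and 27.2% of 1603 genes. For the snRNP core in that band the counts were 2 and 3 of 13, close to the share of all genes. Below -4, 0 of 13 snRNP core genes were measured in the middle zone and 2 in the deep zone, against 22.4% and 26.5% of 2104 genes.

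The members measured on all 6 arrays numbered 10 of 63, beside 603 of all 13586 genes: HNRNPA1, HNRNPA2B1, HNRNPA3, HNRNPC, HNRNPDL, HNRNPH1, HNRNPH2, HNRNPU, SF3B6 and SRSF6. At the other end, LSM10 and LSM11, components of the U7 snRNP that trims histone mRNA, were measured on no array, as were 5141 of all genes. A group of 10 members, or 15.9% of the 63 against 9.75% of all genes, lay well above background on all 3 fetal arrays and on no adult array: SF3A3 and SF3B2 of the U2 snRNP, SNRPB of the Sm ring, SNRPC of the U1 snRNP, PRPF3, PRPF4 and PRPF31 of the U4/U6.U5 particle, and LSM2, LSM3 and LSM6 of the U6 ring. All of them belong to the snRNP core. Among genes measured on all 3 fetal arrays, these were 10 of 53 members and 10 of 28 snRNP core genes, beside 1325 of 3933 genes. On that base the share of members was below that of all genes, and the share of the snRNP core close to it. A further 17 members, beside 1249 of the 13586 genes, were measured on the 3 fetal arrays and in the superficial zone only. Of the 53 members and 3933 genes measured on all 3 fetal arrays, these are close shares. Among the 17 were the splice site factor U2AF2, the U5 core gene PRPF8 and the SR protein genes SRSF1, SRSF4, SRSF10 and SRSF12. LSMEM2 was the member measured in the adult alone, with a level of -2.72 in the superficial zone.

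**Figure D2:**
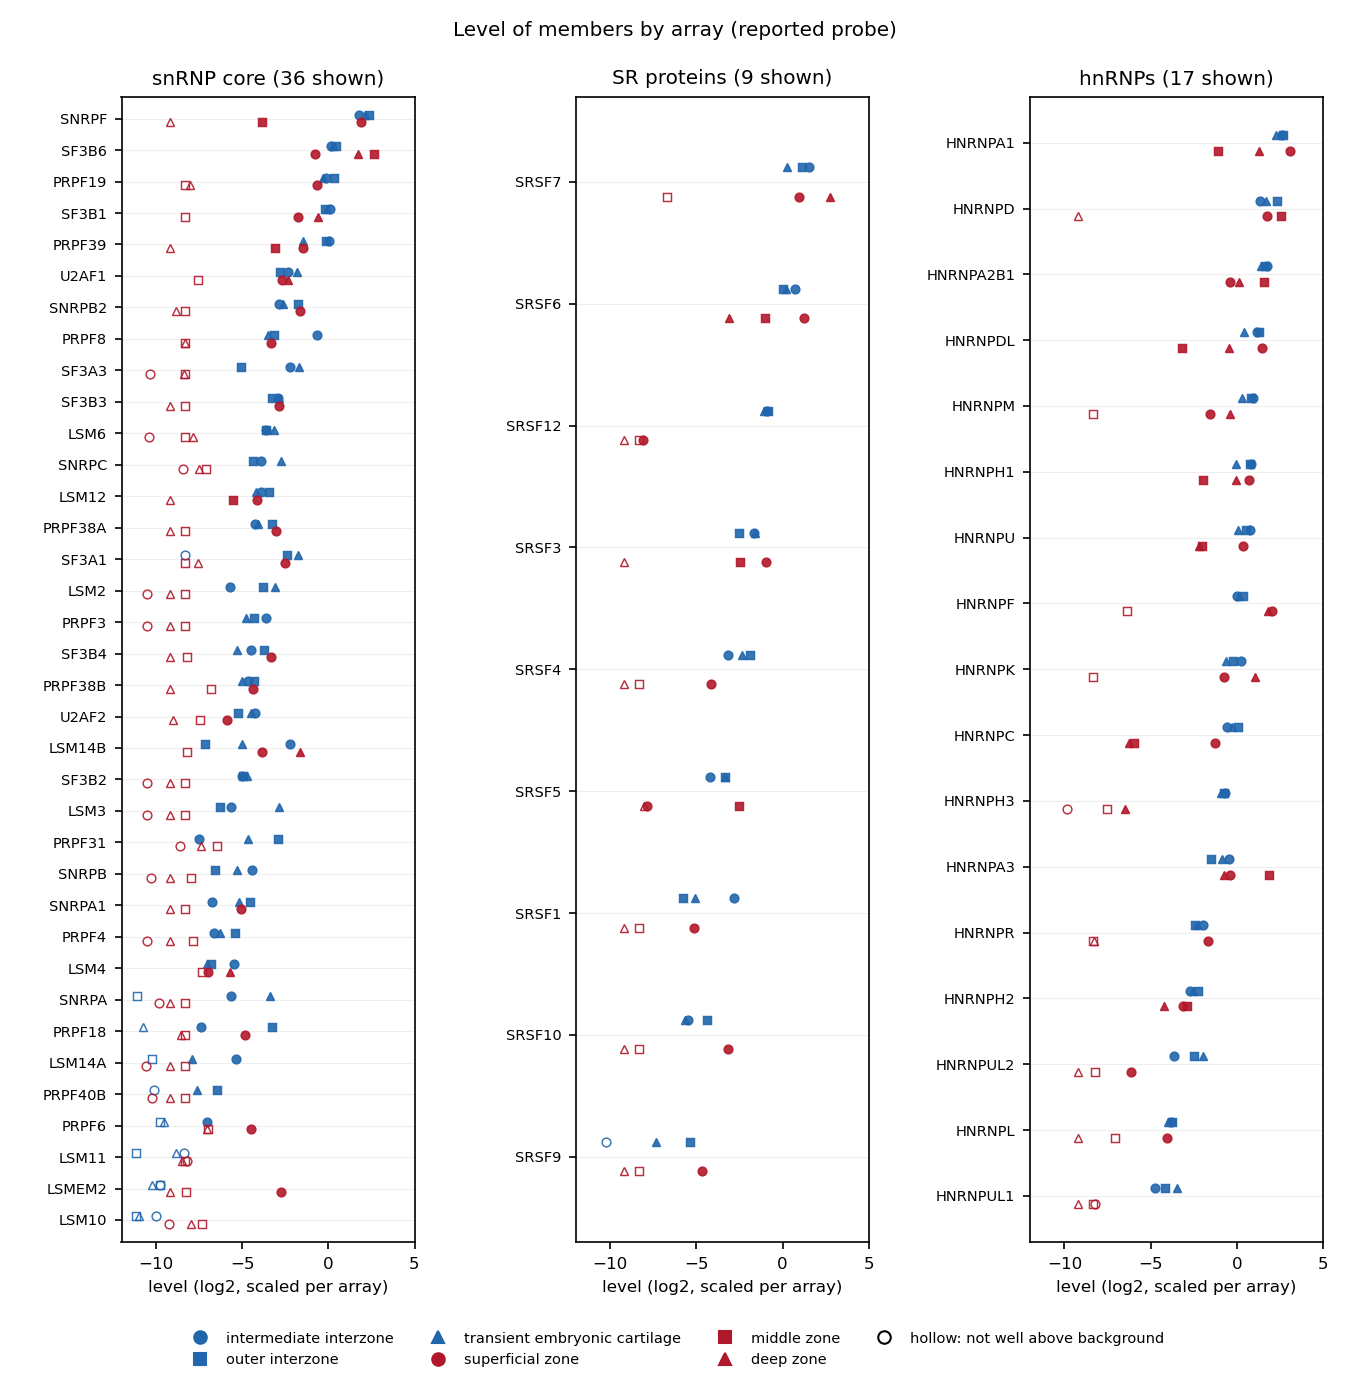
Level of the reported probe of the members shown on each array (horizontal axis, log2 units scaled per array), by class and sorted by the mean over the fetal arrays; blue stands for fetal and red for adult arrays, the shape for the region, and hollow marks for probes not well above background. Fetal marks of most hnRNPs lie close together, and hollow red marks fill the left of the snRNP core panel.

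Among the fetal regions most hnRNP genes held close levels, while the spread of the snRNP core genes lay near that of all genes. The regions are the intermediate interzone, the outer interzone and transient cartilage. After each array was shifted to a common median, the range over the 3 fetal arrays had a median of 0.54 log2 units over the 17 hnRNPs, 1.23 over the 28 snRNP core genes measured on all 3, 1.18 over 8 SR protein genes and 1.47 over all 3871 genes. It stayed within 2-fold for 14 of 17 hnRNPs, 11 of 28 snRNP core genes, 3 of 8 SR protein genes and 31.7% of all genes. Beyond 4-fold were 1 hnRNP, 9 of 28 snRNP core genes and 33.6% of all genes. These ranges are those of the reported probe. In the same order of regions, another probe of HNRNPH3 had levels of -5.08, -5.46 and -7.05, and another of HNRNPD -4.26, -1.14 and -1.25. The 5 overlapping HNRNPL probes each stayed close. Among genes with a mean fetal level from -4 to 0, 7 of 8 hnRNPs stayed within 2-fold, against 5 of 13 snRNP core genes and 35.6% of 1603 genes. Above 0 the share of all genes was larger: 7 of 8 hnRNPs stayed within 2-fold, beside 62.8% of 164 genes. The 2 snRNP core and 2 SR protein genes of that band did as well. Below -4 the 1 hnRNP did not. The steadiest member was HNRNPA2B1, an exon silencer protein of the A/B group, with a shifted range of 0.06.

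Among the least steady members in the fetus were several of the snRNP core. LSM14B, an mRNA storage factor, had levels of -2.20, -7.18 and -5.03 in the intermediate interzone, the outer interzone and transient cartilage, a shifted range of 4.86. PRPF31, a protein of the U4/U6.U5 particle, had levels of -7.52, -2.90 and -4.65 in the same order, a range of 4.74. Its intermediate interzone level lay near the lowest level well above background on that array, -8.02. LSM3 had levels of -5.63, -6.28 and -2.84, and SF3A3 of -2.25, -5.07 and -1.70. LSM14B, LSM3 and SF3A3 were lowest in the outer interzone and PRPF31 in the intermediate interzone, so no fetal array was lowest for all of them.

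For each pair of arrays a relative difference was taken: the log2 difference minus the median over all genes measured in that pair, so that a scaling factor of an array drops out. A member was counted as higher or lower past 2-fold of it. The spot error of a difference had a median of 0.20 log2 units, and the SD between probes of a gene a median of 0.25 to 0.87, depending on the pair.

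Tissue of the future joint was compared with cartilage bound to become bone, first for the intermediate interzone against transient cartilage. Of 55 members measured in both, 6 were past 2-fold higher on the interzone side, where 24.6% of all genes were, and 10 lower, where 23.9% of all genes were. The median was -0.19, so as a group the members lay close to all genes. In the snRNP core the higher genes were led by PRPF8, the U5 core protein gene (2.53, 5.79-fold), LSM14B (2.47, 5.54-fold) and LSM14A (2.21, 4.63-fold). The lower ones were led by PRPF31 (-3.22, 9.35-fold), LSM3 (-3.15, 8.85-fold) and LSM2 (-3.00, 8.00-fold), the last 2 of the U6 ring. The PRPF31 value rests on an intermediate interzone level near the lowest one well above background, as given above. Among SR protein genes SRSF1 was 3.65-fold higher, and SRSF4 and SRSF5 were 2.28-fold and 2.26-fold lower. Of 17 hnRNPs 0 were higher and 2 lower, HNRNPUL2 by 4.09-fold and HNRNPUL1, whose probes ran from -1.64 to 0.16, by 3.12-fold. Genes above background on the intermediate side only were 2 (5.79% of all genes) and on the transient side only 3 (13.6%). SF3A1, a U2 snRNP gene with levels of -2.41 and -1.77 in the outer interzone and transient cartilage, was not well above background in the intermediate interzone and was at least 76.0-fold lower there than in transient cartilage. SRSF9 was at least 1.57-fold lower. In the other direction the bounds were small, at least 3.59-fold for PRPF6 and at least 2.79-fold for PRPF18.

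The comparison of the outer interzone used the transient cartilage array again, whose error enters both. Here 6 of 56 members were higher, against 23.5% of all genes, and 8 lower, against 21.6%, with a median of 0.16. All 17 hnRNPs stayed within 2-fold, with a median of 0.23. The higher genes of the snRNP core were PRPF31 (3.18-fold), SF3B4 (2.75-fold), a subunit that binds near the branch point, and PRPF39 (2.35-fold), a U1 partner. The lower ones included LSM3 (11.5-fold) and SF3A3 (10.9-fold). SRSF9 was 3.71-fold and SRSF10 2.32-fold higher, and SRSF3 2.01-fold lower. On 1 side only were 1 member in the outer interzone (7.96% of all genes) and 2 in transient cartilage (10.1%). PRPF18, a factor of the second splicing step, lay well above background in the outer interzone at -3.25 but not in transient cartilage, a difference of at least 49.4-fold. SNRPA, a U1 snRNP gene, showed the reverse, with -3.39 in transient cartilage and a difference of at least 46.9-fold.

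Between the interzone layers, 7 of 54 members were higher in the intermediate layer and 12 lower, against 21.3% of all genes in either direction. The median was -0.20. LSM14B was 27.3-fold higher in the intermediate layer and SF3A3 6.10-fold, while PRPF31 was 28.4-fold lower, PRPF18 20.5-fold and SNRPA1, a U2 snRNP gene, 5.41-fold. The intermediate levels of PRPF31 (-7.52) and PRPF18 (-7.40) lay near the lowest level well above background on that array, -8.02. SRSF1 was 6.57-fold higher, and SRSF4, SRSF10 and SRSF5 were 2.76-fold, 2.58-fold and 2.05-fold lower. SRSF1 had levels of -2.85, -5.77 and -5.07 in the intermediate interzone, the outer interzone and transient cartilage and of -5.12 in the superficial zone, so for this probe the intermediate interzone was highest. The gene's other probe was well above background in the outer interzone alone, at -7.39. The 2 hnRNPs past 2-fold, HNRNPUL2 (2.62-fold lower) and HNRNPD (2.35-fold lower), each had another probe on the opposite side. Measured in the intermediate layer only were 3 members (6.04% of all genes), and in the outer layer only 3 (11.8%). SF3A1 and SRSF9 were lower in the former by at least 48.9-fold and 6.15-fold, and LSM14A and SNRPA at least 11.9-fold and 9.73-fold higher.

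**Figure D3:**
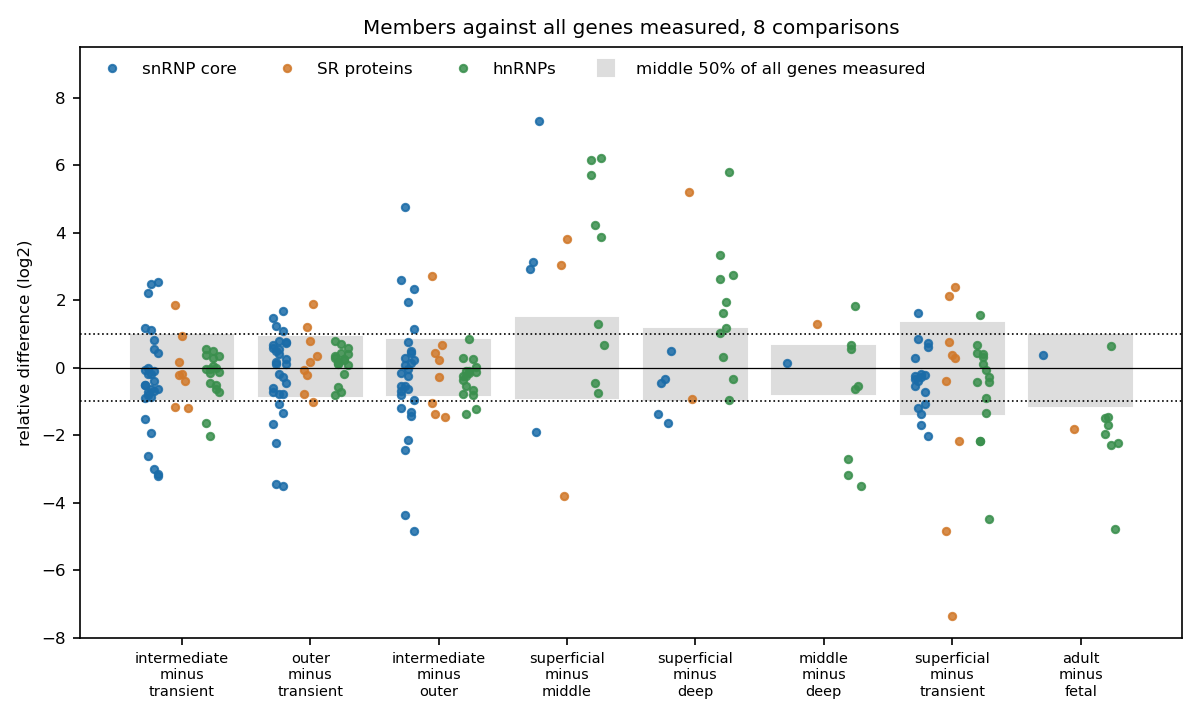
Relative difference of the measured members shown (vertical axis, log2 units; 1 point per gene, coloured by class) in 8 comparisons, with the middle 50% of all genes measured in grey and dotted lines at 2-fold. In the 3 fetal pairs most hnRNP points lie within 2-fold, with HNRNPUL2 at -2.03 as the lowest; in superficial minus middle they lie mostly above the grey box, up to 6.22.

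In adult cartilage the superficial zone was set against the middle zone to ask how expression changes with depth. Of 16 members measured in both, 11 were higher in the superficial zone, against 32.0% of all genes, and 2 were lower, against 22.9%. The median relative difference was 3.08, and the difference in level before the median of all genes (-1.52) was taken off was 1.56. SNRPF, an Sm ring gene, had levels of 2.36, 2.13 and 1.75 in the outer interzone, transient cartilage and intermediate interzone, 1.92 in the superficial zone and -3.87 in the middle zone. It was relatively 159-fold higher in the superficial zone and was not well above background in the deep zone. PRPF39 was 8.71-fold and LSM12 7.57-fold higher, but both turned to lower (-0.46 and -0.66) when genes above background on 1 array of the pair were let in, a looser filter that moves the median of all genes. SF3B6 was 3.73-fold lower. Of 9 hnRNPs 6 were higher and 0 lower: HNRNPC by 74.4-fold, HNRNPDL by 70.5-fold and HNRNPA1 by 51.9-fold, followed by HNRNPH1, HNRNPU and HNRNPH2, the last of which turned to -2.28 with the looser filter. The other 3 hnRNPs lay within 2-fold. SRSF6 was 14.2-fold and SRSF3 8.22-fold higher (SRSF3 -0.54 with the looser filter), and SRSF5 14.0-fold lower. The superficial level of SRSF5, -7.88, lay near the lowest level well above background on that array, -8.28. Its other probe was not well above background in either zone. Over the probes of a gene the difference ran from 0.66 to 6.25 for SRSF6 and from 1.78 to 7.63 for HNRNPA1.

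A further 30 members lay well above background in the superficial zone and not in the middle zone, and 0 the other way. Over all genes, detected or not, the shares were 21.2% and 2.16%. Of genes measured in the superficial zone by any probe, these were 30 of 47 members and 2875 of 3937 genes. On that base members dropped out no more often than all genes. By class the largest bounds were those of HNRNPF (at least 262-fold) and HNRNPK (at least 38.5-fold), SRSF7 (at least 126-fold) and SRSF10 (at least 7.05-fold), and PRPF19 (at least 41.0-fold) and SNRPB2 (at least 20.4-fold). By their reported probes HNRNPF and HNRNPK, which bind G-rich and C-rich RNA, and SRSF7 lay well above background on all other arrays, at levels of -0.74 to 2.73. The other HNRNPK probe was well above background on the fetal arrays and on no adult array. GAPDH, at 0.61 in the superficial zone, also was not well above background in the middle zone.

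Against the deep zone, 9 of 19 members were higher in the superficial zone, where 27.7% of all genes were, and 3 lower, where 24.2% were. The median was 0.50. Among genes measured in both zones, 8 of 11 hnRNPs were higher and 0 lower, with HNRNPC at 55.1-fold, HNRNPU at 10.2-fold and HNRNPDL at 6.64-fold, whereas in the snRNP core 0 of 6 were higher and 3 lower, among them SF3B6 by 3.15-fold and LSM14B by 2.62-fold. These counts leave out 16 snRNP core genes measured in the superficial zone only, with 0 in the deep zone only, and the difference between the classes was not tested. With the looser filter 6 of the 8 hnRNPs turned to lower, HNRNPDL to -0.13 and the others to between -1.85 and -0.25. With quantile normalization 0 members were lower. SRSF6 was 37.0-fold higher. SNRPF had a bound of at least 441-fold, HNRNPD of at least 388-fold, PRPF19 of at least 74.2-fold and HNRNPR of at least 36.7-fold, and the SR protein genes SRSF3 and SRSF10 of at least 60.1-fold and 12.7-fold. HNRNPH3 was the sole member measured in the deep but not the superficial zone, at -6.50, by at least 3.44-fold, beside 2.91% of all genes. On the superficial side only, 27 members were measured, against 19.2% of all genes. Of genes measured in the superficial zone by any probe, these were 27 of 47 members and 2613 of 3937 genes, again no larger a share of the members.

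Middle and deep zones shared 10 measured members, 2 higher in the middle zone, against 15.8% of all genes, and 3 lower, against 21.1%. HNRNPA3 was 3.54-fold and SRSF6 2.43-fold higher in the middle zone. HNRNPDL was 11.4-fold lower, HNRNPA1 9.12-fold and HNRNPH1 6.55-fold. Probes of HNRNPDL and HNRNPA1 disagreed in this pair, as given below. Measured in the middle zone only were 6 members (3.47% of all genes), and in the deep zone only 10 (6.13%). Of genes measured in the middle zone these were 6 of 16 members and 472 of 1331 genes. In the deep zone they were 10 of 20 members and 833 of 1694 genes, so the shares were close in both zones. HNRNPD, whose product binds AU-rich mRNA ends, had a level of 2.59 in the middle zone and was at least 701-fold higher there by the reported probe, while its other 2 probes were not well above background in either zone. SRSF3 and SRSF5 were higher in the middle zone by at least 20.9-fold and 19.8-fold. For SRSF5 this is the reported probe, and its other probe was not well above background in either zone. SRSF7, at 2.73 in the deep zone, was at least 429-fold lower in the middle zone. HNRNPF and HNRNPK were at least 230-fold and 132-fold lower there, and SF3B1, the branch point scaffold, at least 43.2-fold. The other HNRNPK probe was not well above background in either zone. Members of each class thus dropped out on both sides of this pair.

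The superficial zone, the best detected adult array, was set against transient cartilage to compare permanent with transient cartilage; slide and stage lie together in this pair and cannot be told apart. Of 43 members, 4 were higher, against 30.2% of all genes, and 12 lower, against 31.0%, with a median of -0.29. SRSF12 had levels of -0.91, -0.84 and -1.09 in the intermediate interzone, the outer interzone and transient cartilage and of -8.10 in the superficial zone, a relative difference of -7.35 (163-fold lower), and it was not well above background in the other adult zones. SRSF5 was 28.9-fold lower and SRSF4 4.48-fold lower, while SRSF9 and SRSF10 were 5.21-fold and 4.35-fold higher. The superficial levels of SRSF12 and of SRSF5 (-7.88) lay near the lowest level well above background on that array, -8.28. The folds of these 2 genes therefore rest on readings near that limit. Among hnRNPs, HNRNPUL2 was 22.3-fold lower, HNRNPM 4.53-fold and HNRNPA2B1 4.50-fold, and HNRNPF 2.97-fold higher. In the snRNP core SF3B1 was 4.07-fold, U2AF2 3.26-fold and SF3B6 2.59-fold lower, and SF3B4 3.06-fold higher. With the looser filter U2AF2 and SF3B6 turned to 0.036 and 0.37. Genes measured in transient cartilage only numbered 14, against 23.0% of all genes. They included HNRNPH3 (at least 164-fold), whose reported probe had fetal levels of -0.68, -0.76 and -0.92 and whose other probe had -5.08, -5.46 and -7.05, and SF3A3 (at least 95.3-fold) and SNRPC (at least 46.2-fold). In the superficial zone only, 3 members were measured (6.24% of all genes), with LSMEM2 and PRPF6 at least 71.4-fold and 20.8-fold higher.

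Taking the adult arrays against the fetal arrays as means of 3 regions, which treats regions as replicates, 10 members were measured throughout. Of these 0 were at least 2-fold higher in the adult, against 24.3% of all genes, and 8 lower, against 26.5%, with a median of -1.76. That median ran from -2.70 without the superficial zone to -0.59 without the middle zone. HNRNPC, which binds U-rich RNA, had levels of -0.54, 0.06 and -0.27 in the intermediate interzone, the outer interzone and transient cartilage and of -1.27, -5.97 and -6.23 in the superficial, middle and deep zones. All 3 adult values lay below all fetal ones, and the relative difference was -4.78 (27.5-fold lower). The middle and deep values lay near the lowest level well above background on those arrays, -6.01 and -6.86. This fold and the zone differences of HNRNPC given above therefore rest on readings near that limit. HNRNPH2, a binder of G-runs, had levels of -2.72, -2.26 and -2.57 in the fetal regions and of -3.12, -2.90 and -4.24 in the adult zones, again without overlap and 2.74-fold lower. For HNRNPC the value rests on probe a, and HNRNPH2 has 1 measured probe. Levels of the other 8 members overlapped between the stages. Over all genes 10.3% had every adult array below every fetal array and 23.6% the reverse. Under other scalings the set of members without overlap changed. With the 75th percentile of all probes 0 lay below, beside 1.40% of all genes, and 4 above (HNRNPA2B1, HNRNPA3, HNRNPH2 and SF3B6), beside 75.6% of all genes. With quantile normalization HNRNPA2B1 and HNRNPC lay below, beside 4.15% of all genes, and 0 above, beside 54.0%. A further 10 members, the snRNP core genes measured in the fetus alone, were measured on every fetal and no adult array (9.61% of all genes, detected or not), and 0 the other way (0.243%). The largest bounds among them were at least 16.5-fold for SF3A3 and 12.1-fold for LSM6.

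The other members measured on all 6 arrays fall into a few shapes. HNRNPA1 had levels of 2.60, 2.65 and 2.30 in the intermediate interzone, the outer interzone and transient cartilage, of 3.08 in the superficial zone, -1.10 in the middle zone and 1.29 in the deep zone. HNRNPDL followed the same course, with 1.16, 1.31 and 0.44 in the fetus and 1.46, -3.16 and -0.45 in the adult zones, as did HNRNPH1, with 0.81, 0.75 and -0.03 and then 0.72, -1.99 and -0.07. In these genes the superficial zone lay near or above the fetal levels and the middle zone was lowest.

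HNRNPU, a nuclear scaffold protein gene, had fetal levels of 0.77, 0.55 and 0.07, a superficial level of 0.35, and -2.01 and -2.17 in the middle and deep zones. SRSF6 had fetal levels of 0.71, 0.05 and 0.18, a superficial level of 1.27, and -1.04 and -3.11 below it. Both were low in the deeper zones.

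HNRNPA2B1 had levels of 1.74, 1.63 and 1.43 in the fetus and of -0.40, 1.58 and 0.13 in the superficial, middle and deep zones. HNRNPA3, of the same A/B group, had -0.46, -1.50 and -0.87 and then -0.42, 1.86 and -0.76. SF3B6, the small U2 snRNP subunit that contacts the branch point adenosine, had 0.13, 0.47 and 0.28 in the fetus, -0.75 in the superficial zone, 2.67 in the middle zone and 1.73 in the deep zone. In these 3 genes the middle zone was the adult zone with the highest level. On the relative scale SF3B6 alone of the 3 was past 2-fold between the superficial and middle zones.

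**Figure D4:**
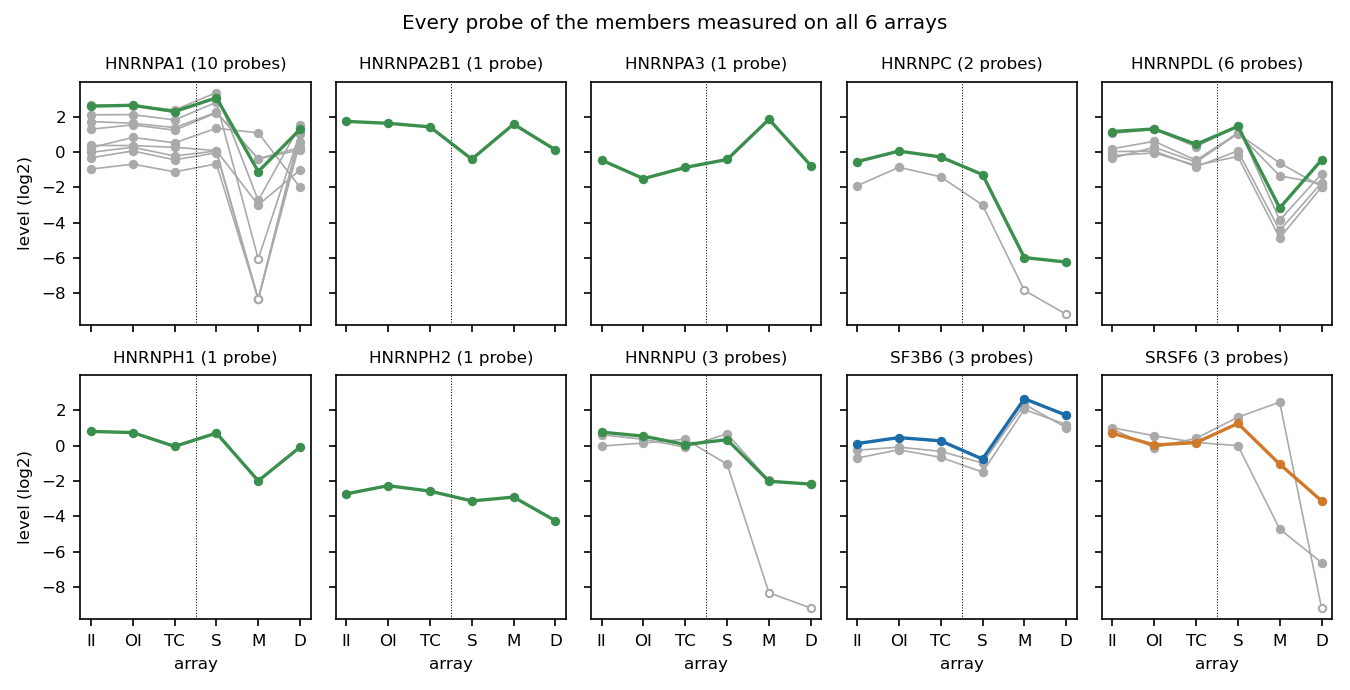
Level (vertical axis, log2 units) of every probe of the 10 members measured on all 6 arrays, with the reported probe in colour, other probes in grey and hollow points where a probe was not well above background. II, OI and TC are the intermediate interzone, outer interzone and transient cartilage, and S, M and D the superficial, middle and deep zones. The 3 SF3B6 probes run together, while probes of HNRNPA1 and SRSF6 part in the middle and deep zones.

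How far a gene's probes agreed differed among the members. SF3B6 probes a, b and c had levels of 2.67, 2.06 and 2.35 in the middle zone and of -0.75, -1.49 and -0.98 in the superficial zone, so all 3 gave the middle zone as higher. HNRNPC probe b, which shares no run of 20 bases with probe a, was not well above background in the middle and deep zones and had fetal levels of -1.91, -0.86 and -1.40 and a superficial level of -3.00. It had the same order as probe a.

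SRSF6 probes gave 3 courses from near-equal fetal levels. In the middle zone probe a had a level of -1.04, probe b of -4.72 and probe c of 2.48; in the deep zone the levels were -3.11, -6.62 and, for probe c, not well above background. All 3 probes gave the middle zone as higher than the deep zone, and they differed in the size of that step and in the step from the superficial zone.

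HNRNPA1 is a gene with many near-identical copies in mammalian genomes, and whether its 10 probes detect 1 locus was not determined. On the fetal and superficial arrays all 10 lay well above background. In the middle zone 6 did, and their levels reached 1.09 for probe d, -1.10 for probe a and -0.37 for probe b, while probe c was not well above background. In the deep zone all 10 were again measured, and probe c was at 1.17 while probe d was the lowest of them. Over its probes the relative difference between middle and deep zones ran from -5.07 to 2.29, and that between superficial and deep from -0.44 to 4.18. For HNRNPDL it ran from -3.67 to 0.54 between middle and deep zones.

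HNRNPUL1 had opposite patterns at 2 places. Probe a had levels of -4.75, -4.18 and -3.46 in the intermediate interzone, the outer interzone and transient cartilage and was not well above background in the adult. The 5 probes of the tile around probe b, which share 53 to 59 bases, had levels of -4.73 to -4.07 in the intermediate interzone and of -4.96 to -4.51 in transient cartilage, were not well above background in the outer interzone, and reached -2.79 to -2.39 in the superficial zone. The tile thus counted the gene as measured in the superficial zone, and probe a in the outer interzone.

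U2AF1 probes a and b share 40 bases and had close fetal levels, with -2.32, -2.82 and -1.82 for probe a and -2.77, -3.02 and -2.02 for probe b. In the deep zone probe a was at -2.36 and probe b was not well above background. In each fetal pair 5 to 7 members had measured probes on both sides of 0. Among the large splits were those of HNRNPD, from -3.33 to 1.14 between the interzone layers, and of HNRNPUL2, from -1.39 to 1.59. No reported probe of a member shared 20 or more bases in a row with a probe of another name.

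The remaining splicing machinery was read from a list of 88 genes on the array with other prefixes, such as helicases, snRNP proteins of the SNRNP series and tissue-specific regulators. Of these, 67, 71 and 71 were measured on the intermediate interzone, outer interzone and transient cartilage arrays, and 51, 15 and 19 in the superficial, middle and deep zones. That was 76.1%, 80.7%, 80.7%, 58.0%, 17.0% and 21.6%, beside 38.0%, 43.8%, 45.9%, 29.0%, 9.80% and 12.5% of all genes. In the intermediate interzone against transient cartilage 11 of 60 were higher and 19 lower, against 24.6% and 23.9% of all genes. EFTUD2, the U5 GTPase gene, was 10.1-fold lower and SNRNP35 9.94-fold lower, and GEMIN4, an snRNP assembly gene, 8.28-fold higher. In the outer interzone against transient cartilage 11 of 64 were higher and 9 lower, against 23.5% and 21.6% of all genes. The higher ones were led by DHX8 (8.13-fold) and RBFOX2 (4.02-fold), and the lower ones by PHF5A (33.1-fold), a partner of SF3B1. Between the interzone layers 7 of 60 were higher in the intermediate layer, with PHF5A at 39.2-fold, and 14 lower, with EFTUD2 at 17.4-fold. Over all genes 21.3% were past 2-fold in either direction.

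In the adult, 4 of 10 such genes were higher in the superficial than the middle zone and 4 lower (all genes 32.0% and 22.9%). DDX5, an RNA helicase gene, was 31.6-fold higher and the splicing regulator gene MBNL1 6.18-fold lower. Against the deep zone 8 of 17 were higher and 7 lower (all genes 27.7% and 24.2%), with AQR at 78.8-fold higher and PNN at a relative difference of -6.74. Between the middle and deep zones 2 of 8 were higher and 2 lower (all genes 15.8% and 21.1%), and DDX5 was 6.72-fold lower in the middle zone. In the superficial zone against transient cartilage 11 of 46 were higher and 16 lower (all genes 30.2% and 31.0%). The helicase genes DDX17 and DDX23 were 6.46-fold higher and 28.0-fold lower. Over stage 0 of 7 were higher in the adult and 6 lower (all genes 24.3% and 26.5%), with MAGOH, of the exon junction complex, at 17.8-fold lower. The median was -1.56, beside -1.76 for the members.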

How the data were processed

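Each of 6 groups had 1 array. Per the file headers, Agilent Feature Extraction 10.7.3.1 read spot intensities from 1-colour scans and gave a background-subtracted, spatially detrended processed signal, a spot error and a flag for spots well above background. The authors' deposited table held the ratio of that signal to the array's median, in which each column has a median of 1. Its log2 values correlated at 1 with those of the scanner files, and it was used as an alternative only.

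From the deposited intensities, 1417 control spots and 3 to 80 outlier spots per array were left out; 0 spots were saturated. Spots of a probe were averaged, log2 was taken and the percentile subtracted. Probes were named by gene number (13532), symbol (8970, and 734 missing from the table), full name (198), older symbol (192) or accession (147), with RefSeq's horse gene table (assembly TB-T2T) serving for names alone; 19830 had no name. A gene entered a comparison if its reported probe lay well above background on all its arrays, and counted as detected if any probe did. Bounds set the bright side's mean level against, on the dim side, the higher of the probe's own level and the lowest level well above background on that array; they are not shifted by the median of all genes.

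No test was made of the main values, which rest on 1 array a group. limma 3.58.1 in R 4.3.3 was run for stage as an alternative. Scripts used numpy 2.4.6 and pandas 2.3.3 and were tested on simulated data. Members and gene lists were chosen with earlier results of these data known. Named with every value were members measured on all 6 arrays; per comparison and class, up to 3 members per direction past 2-fold and up to 2 bounds; of the other splicing genes, up to 2 per direction. Values of further members were added after they had been seen, to show ranges and probe disagreement. Values of 1 member are not reported here; it stays in the counts and medians.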

Additional observations from a re-analysis of the deposited data

How the results depend on the processing

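No paired analysis was possible because each group had 1 array. Relative differences do not move with the percentile used for scaling. For the intermediate interzone against transient cartilage, members higher numbered 3 with normexp, 10 with a looser filter (above background on 1 array of the pair, or of each stage) and 3 at 4-fold, members lower 5 at 4-fold, and the median was 0.15 with the looser filter. For the outer interzone against transient cartilage, higher members were 10 with quantile normalization and 0 at 4-fold, lower ones 5 with normexp and 4 at 4-fold. Between the interzone layers the median was -0.61 with normexp, higher members were 11 with the looser filter and lower ones 4 at 4-fold. For superficial against middle, lower members were 1 with quantile normalization, with the stricter filter and at 4-fold and 8 with the looser filter, higher ones 27 with the looser filter, and the median was 1.99 with normexp and 1.86 with the looser filter. For superficial against deep, the median was 1.09 with quantile normalization and 1.68 with the looser filter, lower members were 0 with quantile normalization, 1 with normexp, 15 with the looser filter and 0 at 4-fold, and higher ones 26 with the looser filter and 5 at 4-fold. For middle against deep, higher members were 1 with normexp, 10 with the looser filter and 0 at 4-fold, lower ones 13 with the looser filter, and the median was 0.24 with the stricter and -0.75 with the looser filter. For superficial against transient cartilage, the median was -0.83 with quantile normalization and 1.19 with the looser filter, lower members were 20 with quantile normalization and 7 at 4-fold, and higher ones 32 with the looser filter and 2 at 4-fold. For stage the median was -3.73 with quantile normalization and -2.09 with normexp, higher members were 3 with the looser filter, and lower ones 32 with the looser filter and 3 at 4-fold. Leaving out 1 array, the stage median ran from -2.70 without the superficial zone to -0.59 without the middle zone, higher members from 0 to 3 and lower ones from 7 to 11. Without the middle zone HNRNPA1 (-0.72), HNRNPDL (-0.85) and HNRNPH1 (-0.57) were within 2-fold, as was SRSF6 without the deep zone (-0.82). Members without overlap between stages numbered 4 of 10 with the 75th percentile of all probes, all above, where 75.6% of all genes lay above and 1.40% below, and 1 of 9 with normexp, below, where 6.80% lay below and 13.6% above. These scalings were added for that count after seeing the data. By limma with stage as the only term, 0 of 10 members passed an adjusted p of 0.05, 1 had an unadjusted p below it, and the lowest adjusted p was 0.0877. Of all 573 genes, 44 passed the adjusted and 153 the unadjusted threshold. HNRNPUL2 between the interzone layers turned to 0.53 with the mean over probes. With the looser filter, superficial against middle turned for HNRNPH2 (-2.28), LSM12 (-0.66), PRPF39 (-0.46) and SRSF3 (-0.54), superficial against deep for HNRNPA1 (-0.25), HNRNPA3 (-1.69), HNRNPDL (-0.13), HNRNPF (-1.85), HNRNPH1 (-1.24) and HNRNPH2 (-0.91), and superficial against transient cartilage for HNRNPC (0.40), SF3A1 (0.65), SF3B6 (0.37), U2AF1 (0.53) and U2AF2 (0.036). By its construction that filter adds genes measured on 1 side only, which moved the subtracted median of all genes from -1.52 to 2.06, from -0.83 to 2.03 and from 0.34 to -1.40 in these pairs. In the 7 comparisons above that name it, the looser filter measured 60, 60, 46, 47, 26, 61 and 46 members, in the order given, with 28.5% to 42.4% of all genes higher and 31.7% to 42.1% lower, so its counts cannot be set against those of fewer members. Of all genes, 5.59% to 19.6% were higher and 8.60% to 17.4% lower at 4-fold, 22.5% to 29.1% and 13.4% to 34.4% with quantile normalization, and 7.65% to 26.4% and 9.45% to 22.2% with normexp, over the comparisons given for each. For the other changes the cause was not tested. Of 852 alternative values of single genes, 775 kept their direction and side of 2-fold.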

Other observations

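Several probes near the edge of the naming rule were not counted as members. A probe described as the N-like protein of the snRNP, whose gene number now names SNURF, had levels of -4.56, -3.23 and -3.84 in the intermediate interzone, the outer interzone and transient cartilage and was not well above background in the adult zones, as were 10 members. Of 3 probes described as an arginine-rich splicing factor with the rest of the name cut off, 1 was measured on all 6 arrays, at -0.96, -1.87 and -1.87 in the fetal regions, -2.22 in the superficial zone, 1.80 in the middle zone and -1.12 in the deep zone. The middle zone was its highest array, as for SF3B6 and HNRNPA3. The other two were measured on the fetal and superficial arrays, at -3.18 to 0.47, and not in the deeper zones.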
